A study of Rattus norvegicus with 6 samples.

Results

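The genes described here are 33 genes of cholesterol and fatty acid synthesis, chosen by gene name and pathway role. They comprised the regulators of the SREBP transcription factors, the enzymes of the mevalonate steps, the enzymes from squalene to cholesterol, sterol transport proteins, enzymes of fatty acid synthesis, and the desaturases and elongases. A row of exactly that name was found for 26 of the 33 genes in a table of 27321 rows, and all 26 were among the 13486 rows that averaged 5 or more normalized counts per library and were tested. RNA was sequenced from the inner medulla (IM) tip, the terminal part of the kidney inner medulla, of male Sprague-Dawley rats 3 months old. The STZ group held 3 rats that received streptozotocin, a toxin of the insulin-producing beta cells, at 62.5 mg/kg into the tail vein, and the control group held 3 rats injected with vehicle. Tissue was taken 15 days after the injection from both groups. No allele or other agent was given in the labels, and diabetes was checked by blood glucose. The IM tip is a mixture of collecting duct, thin limb, vessels and interstitial cells, so the values are those of a whole tissue.

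Cells make cholesterol from acetyl-CoA in a long chain of enzymes. Mevalonate is formed and phosphorylated first, isoprenoid units are then joined to farnesyl pyrophosphate and squalene, and squalene is finally closed and trimmed to cholesterol. The SREBP factors, encoded by Srebf1 and Srebf2, are held in the endoplasmic reticulum by the INSIG proteins while sterol is plentiful, and are carried to the Golgi by SCAP and cut there when sterol is low. The released fragment switches on the sterol genes and, mostly for the products of Srebf1, the genes of fatty acid synthesis and desaturation, and hepatic Srebf1 is known to respond to insulin. In the kidney medulla, sterols and fatty acids serve mainly the membranes of the tubule cells, and cholesterol is a main lipid of the membrane rafts in which urea transporters and water channels are found.

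The libraries held between 3412311 and 5575171 reads on the rows of the table. Values are normalized counts, that is, reads divided by 1 size factor per library, and the log2 fold change (log2FC) is the difference of log2(normalized count + 1), STZ minus control, with its standard error (SE) from limma. The groups of libraries also differed in their markers of other cell types. The summed normalized count of the thick ascending limb list was 1103 to 1894 in control and 212 to 599 in STZ libraries. By limma 2 of its 3 tested markers, Umod and Egf, were called lower. The other, Slc12a1, was lower in every STZ library than in any control library, with a limma adjusted p of 0.073. The endothelial sum was 7011 to 9098 against 3662 to 4041, with Emcn and Plvap called lower by limma among 6 tested. This sum was mostly Emcn, with means of 5510 in control and 2095 in STZ. Of the 6 markers, 4 had a log2FC below 0, while Flt1 (0.95) and Pecam1 (0.04) were above 0. The urothelial sum was 101 to 167 against 447 to 533, with Upk1b and Upk3a called higher by limma among 6 tested. Most of that difference was Upk3a, with means of 35.3 in control and 344 in STZ. Of the 6 markers, 5 had a log2FC above 0, down to 0.04 for Upk1a, and Krt15 was at -0.80. The proximal tubule sum was 200 to 257 against 133 to 172, with none of 4 tested markers called by limma or edgeR. Sums overlapped between the groups for the collecting duct list, at 32852 to 54734 against 42759 to 81831, the thin limb list, at 32803 to 45764 against 31334 to 39321, and the macrophage list, at 795 to 2177 against 1169 to 1966. They also overlapped for the interstitial list, at 7416 to 9114 against 4582 to 10793, in which Pdgfra was called higher, and for the liver list, at 19.5 to 105 against 105 to 242. The collecting duct sum was mostly Fxyd4. In that list Aqp2, Scnn1b and Scnn1g were higher in every STZ library than in any control library, and Hsd11b2 and Calb1 were lower. Limma called none of its 9 tested markers, and DESeq2 called Aqp2 (adjusted p 0.030) and Scnn1g (adjusted p 0.042). The adipocyte sum was 405 to 1061 against 472 to 617, Lep was at 0 in all 6 libraries, and 3 of the 6 adipocyte markers found were at or under 3 reads in every library. In a whole tissue, fewer cells of a type and less RNA per cell cannot be told apart. The 3 control libraries carry 1 lane number in the column names and each STZ library carries another, so lane and group cannot be told apart either. The part of these cell type markers in the values of the lipid genes was not tested.

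No gene of cholesterol or fatty acid synthesis passed the test between STZ and control rats. By limma, 0 of the 26 genes had a Benjamini-Hochberg adjusted p under 0.05, where 2.1% of all rows tested did. The count was also 0 by edgeR, which called 2.13% of all rows, and 0 by DESeq2, which called 4.43% of all rows and gave no adjusted p for Srebf1, Mvd and Stard4. At an unadjusted limma p under 0.05, 3 genes were higher in STZ (Srebf2, Ebp and Fads2), where 7.75% of all rows were, and 1 gene was lower (Pmvk), where 6.99% were. The 3 STZ values lay above all 3 control values for 4 genes (Srebf2, Ebp, Lss and Fads2), against 10.1% of all rows, and below them for 2 genes (Pmvk and Abcg1), against 10.3% of all rows. Together these 6 genes were 23.1% of the 26.

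The log2FCs of the 26 genes ran from -0.56 to 0.89, with 11 above 0 and 15 below 0. Their median was -0.09, where the median of all 13486 rows was 0.0056. The SE ran from 0.17 to 0.54 per gene, and the 95% interval lay within a log2 change of 1 in either direction for 18 of the 26. For those 18 genes a doubling or a halving of normalized count + 1 was outside the interval, while differences smaller than that were within it for most of them. The smallest size of a log2FC among the 283 rows that passed was 0.79.

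**Figure D1:**
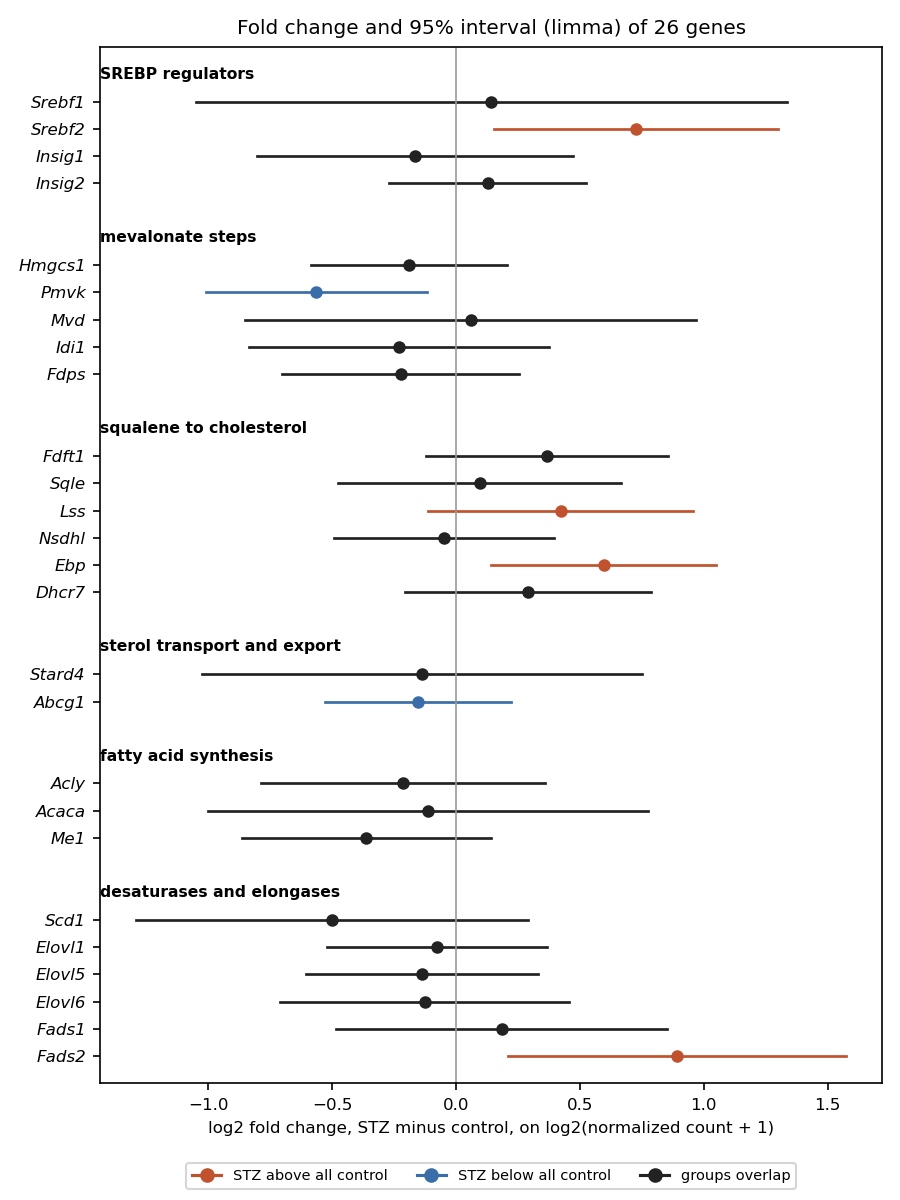
Log2FC (STZ minus control, on log2(normalized count + 1)) of the 26 genes, in groups by role, with the 95% interval from limma as a line. Orange marks genes whose 3 STZ libraries lay above all 3 control libraries, blue those below, and black those that overlapped, and the intervals of 4 genes (Srebf2, Pmvk, Ebp and Fads2) do not cross 0.

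Of the SREBP regulators, Srebf2, which encodes the factor that mainly drives the sterol genes, was the 1 whose groups did not overlap. Srebf2 (rn4 chromosome 7, 120522510 to 120580210) had normalized counts of 277, 249 and 164 in the control libraries and 507, 355 and 286 in the STZ libraries. The lowest STZ library was thus only slightly above the highest control library, and within each group the libraries spread widely. Means of 230 ± 59.0 and 383 ± 113 (SD, n = 3 each) made a ratio of 1.66, and the log2FC was 0.73 with an SE of 0.26, an unadjusted limma p of 0.018 and an adjusted p of 0.207. The exact two-sided permutation test gave 0.1, the smallest p that 3 against 3 libraries allow. The row overlaps that of Mei1 and F1M407_RAT, merged in the table, with a mean of 15.5 normalized counts, and that of the intronic microRNA rno-mir-33, with a mean of 0.167, so that reads of these could be shared with it.

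Srebf1, the gene of the factor linked to insulin and lipogenesis, gave few reads. Its normalized counts were 7.18, 19.1 and 12.2 in control and 15.8, 5.93 and 24.1 in STZ libraries. The groups overlapped entirely, with the lowest and the highest of the 6 values both in the STZ group. The log2FC was 0.14 with an SE of 0.54 and a limma adjusted p of 0.957, so that its 95% interval, -1.05 to 1.34, left more than a doubling in one direction and a halving in the other within range. Background in these libraries was measured on 835 olfactory receptor rows, genes of the nose, and Srebf1 lay above their 95th percentile in 5 of 6 libraries.

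The INSIG genes, whose proteins retain the SREBPs, overlapped between the groups. Insig1, itself a target of the SREBPs, was at 67.7, 57.2 and 91.3 in control and 42.7, 69.2 and 84.3 in STZ libraries. Its log2FC was -0.16 (SE 0.29, limma adjusted p of 0.891). Insig2 was at 360, 304 and 279 in control and 350, 358 and 317 in STZ libraries, a log2FC of 0.13 (SE 0.18, limma adjusted p of 0.854). STZ replicate 1, the highest of the 6 libraries for Srebf2, was the lowest of the 6 for Insig1. Scap, the gene of the SREBP escort, had no row of its own. A row that merges Scap with the neighbouring ENSRNOG00000042061 held 39.0, 43.5 and 67.9 in control and 64.1, 53.4 and 63.2 in STZ libraries, with a log2FC of 0.30 and a limma adjusted p of 0.696, and it is uncertain how much of it is Scap.

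**Figure D2:**
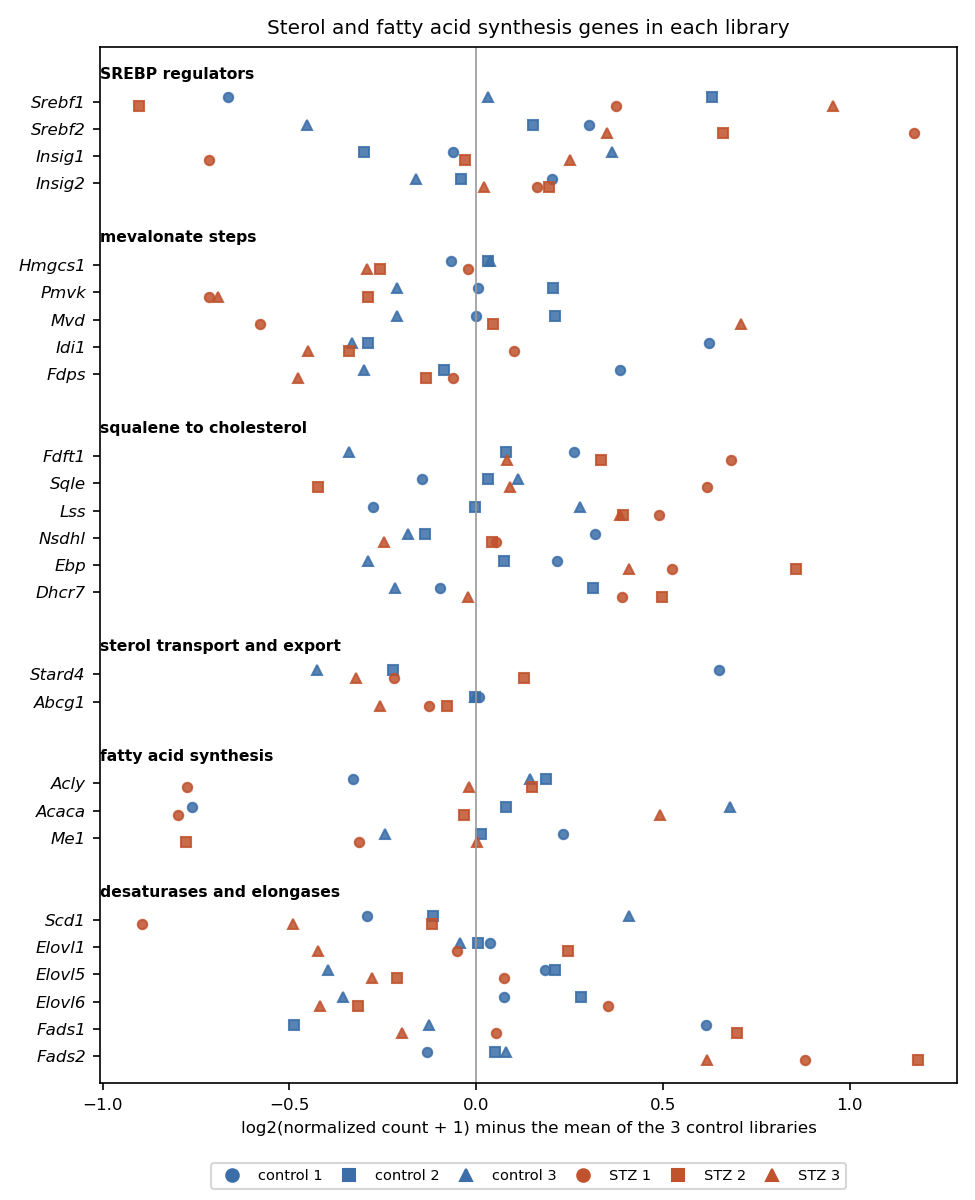
Log2(normalized count + 1) of the 26 genes in each of the 6 libraries, less the mean of the 3 control libraries, with control in blue and STZ in orange and the replicate number given by the marker shape. Most genes show blue and orange markers mixed around 0, while Srebf2, Ebp, Lss and Fads2 have all orange markers to the right of the blue ones and Pmvk and Abcg1 have them to the left.

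Among the mevalonate steps, 4 of the 5 genes with a row had a log2FC below 0, and the median was -0.22. Pmvk, the kinase that adds the second phosphate to mevalonate, was the 1 of these whose groups did not overlap. Pmvk (rn4 chromosome 2, 181655657 to 181665211) was at 2082, 2393 and 1789 normalized counts in control and 1264, 1697 and 1285 in STZ libraries. The highest STZ library was below the lowest control library by less than the spread within either group. The means were 2088 ± 302 and 1415 ± 244 (SD, n = 3 each), the log2FC was -0.56 with an SE of 0.20, and the limma p was 0.018 before and 0.207 after adjustment. Over the alternatives the adjusted p of Pmvk ran from 0.072 to 0.544.

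The other enzymes of these steps overlapped. Hmgcs1, which condenses acetyl-CoA units to HMG-CoA, was at 222 ± 9.02 in control and 195 ± 20.5 in STZ, a log2FC of -0.19. Mvd, the decarboxylase that makes isopentenyl pyrophosphate, was at 14.5 ± 2.27 and 16.1 ± 7.48, a log2FC of 0.06 with an SE of 0.41. Idi1, the isomerase of that product, was at 199 ± 80.6 and 164 ± 34.7, where control replicate 1 alone held 292 and the other 5 libraries 139 to 203. Without that library the log2FC of Idi1 went from -0.23 to 0.08. Fdps, which joins the units to farnesyl pyrophosphate, was at 792 ± 198 and 670 ± 98.5, a log2FC of -0.22. Limma adjusted p for these 4 genes ran from 0.727 to 0.975. Acat2, the thiolase at the head of the chain, had no row of that name, and a row named Acat3, an older symbol of Acat2 in RefSeq, was at 607, 432 and 367 in control and 404, 403 and 311 in STZ libraries (log2FC -0.31, limma adjusted p of 0.599). Mvk was not analysed here.

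From squalene to cholesterol, 5 of the 6 genes with a row had a log2FC above 0, with a median of 0.33. Ebp, the sterol isomerase, and Lss, the cyclase that closes squalene epoxide to lanosterol, had STZ libraries above every control library. Ebp (rn4 chromosome X, 26331198 to 26337539) was at 282, 256 and 198 in control and 349, 440 and 322 in STZ libraries. The gap between the groups, from 282 to 322, was smaller than the range within either. Means of 245 ± 42.8 and 371 ± 61.8 (SD, n = 3 each) made a ratio of 1.51, and the log2FC was 0.60 with an SE of 0.21, a limma p of 0.015 and an adjusted p of 0.187. Its adjusted p over the alternatives ran from 0.072 to 0.555.

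Lss (rn4 chromosome 20, 12507573 to 12534635) was at 30.8, 37.4 and 45.6 in control and 52.9, 49.5 and 49.2 in STZ libraries. The STZ values lay close together, just above the highest control value. The log2FC was 0.42 (SE 0.24, limma adjusted p of 0.477). Fdft1, squalene synthase, was at 658, 580 and 433 in control and 880, 692 and 581 in STZ libraries. The STZ range began at the middle control value, and the log2FC was 0.37 (SE 0.22, limma adjusted p of 0.505). Dhcr7, the reductase of the final step, was at 117 ± 23.5 and 143 ± 26.0, a log2FC of 0.29. Sqle, the squalene epoxidase and a main control point of the later steps, was at 111, 125 and 133 in control and 188, 91.0 and 131 in STZ libraries. STZ replicates 1 and 2 were thus the highest and the lowest of the 6 for Sqle, and its log2FC was 0.10 (SE 0.26). Nsdhl, which takes part in removing the methyl groups of lanosterol, was at 276 ± 55.7 and 265 ± 30.1, a log2FC of -0.05. Hsd17b7 had no row of its own, and a row merged with LOC100361767 was at 28.8 ± 6.84 and 30.3 ± 10.6, a log2FC of 0.03 with a limma adjusted p of 0.983.

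**Figure D3:**
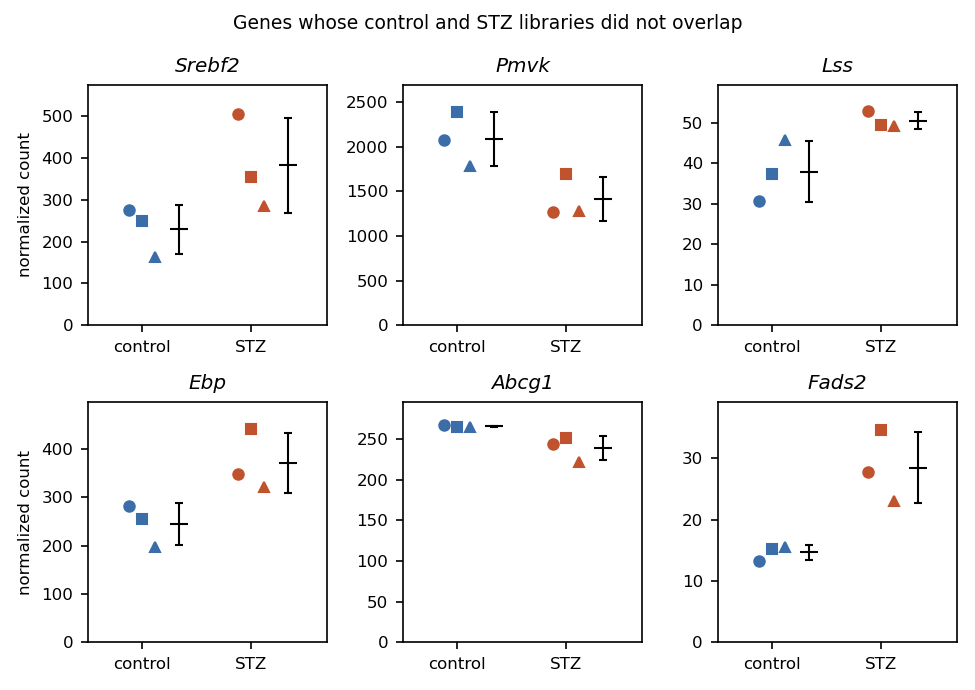
Normalized counts of the 6 genes whose control and STZ libraries did not overlap, 1 panel per gene, with the vertical axis starting at 0. Coloured markers are single libraries (circle, square and triangle for replicates 1, 2 and 3) and the black bar beside them is the mean with 1 SD (n = 3), from 14.7 against 28.5 for Fads2 to 2088 against 1415 for Pmvk, and none of the 6 passed the adjusted threshold.

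The early and late steps of the sterol chain lay differently against each other in the 2 groups. Within a library, the mean log2(normalized count + 1) of the 6 late genes (Fdft1, Sqle, Lss, Nsdhl, Ebp and Dhcr7) minus that of the 5 early genes (Hmgcs1, Pmvk, Mvd, Idi1 and Fdps) was -0.76, -0.58 and -0.52 in control and 0.09, -0.14 and -0.26 in STZ libraries. All 3 STZ libraries were above the control libraries, with means of -0.10 ± 0.18 and -0.62 ± 0.13 (SD, n = 3 each). As a ratio of summed normalized counts, late over early was 0.423, 0.394 and 0.409 in control and 0.781, 0.623 and 0.652 in STZ libraries, and this ratio does not depend on the size factors. Without Pmvk the ratio was still higher in every STZ library, at 1.58 to 1.62 against 0.999 to 1.23, and without Ebp it was 0.464 to 0.638 against 0.322 to 0.345. A single pair of these same genes, across the junction of the branches, had the same order. Fdft1 over Fdps was 0.649, 0.792 and 0.686 in control and 1.18, 0.978 and 1.04 in STZ libraries. Both genes are also in the sums above, so the pair is not a separate observation. Ebp over Nsdhl, both late enzymes, also did not overlap, at 0.894 ± 0.118 and 1.40 ± 0.167 (SD, n = 3 each), whereas Insig1 over Insig2, Fads2 over Fads1 and Pmvk over Fdps overlapped.

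These ratios were chosen after the values had been seen, and no test was made of them. They also rested on which enzymes were listed. With 5 further late enzymes from a wider sterol list, late over early was 0.878 to 0.999 in control and 1.09 to 1.42 in STZ libraries. Among these 11 late and 5 early enzymes, leaving out Pmvk gave ratios of 2.36 to 2.74 against 2.84 to 2.94, while the difference of mean log2 values then overlapped, at -0.13 to 0.088 against 0.082 to 0.39. Sc5dl, a late desaturase of that list, was at 834, 706 and 701 in control and 498, 460 and 437 in STZ libraries. Its groups did not overlap and it lay in the direction opposite to that of Ebp and Lss, with a log2FC of -0.68 (SE 0.17) and a limma adjusted p of 0.076, which ran from 0.0068 to 0.251 over the alternatives.

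**Figure D4:**
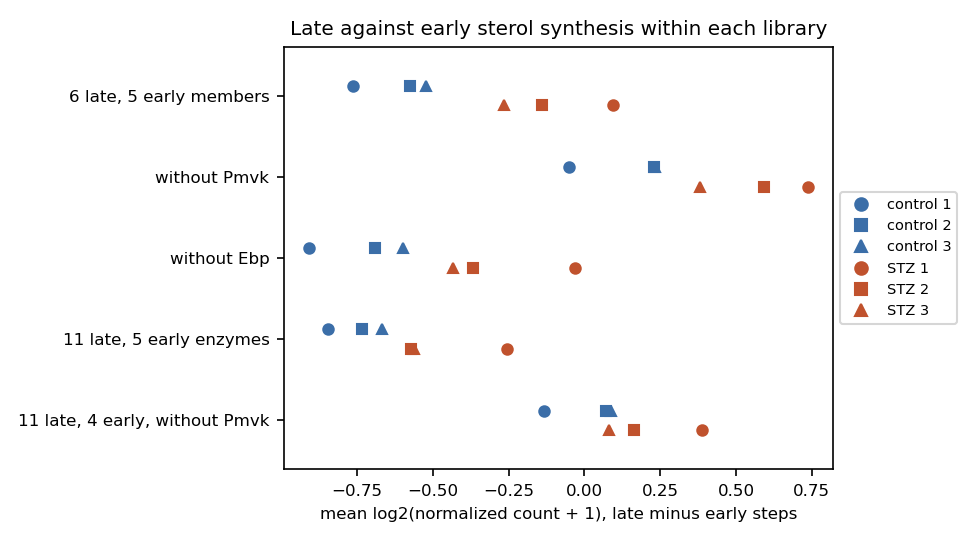
Mean log2(normalized count + 1) of late minus early sterol synthesis genes in each library, with control in blue and STZ in orange and the replicate given by the marker shape. From top to bottom the rows are the 6 late and 5 early genes, the same without Pmvk, without Ebp, with 5 further late enzymes of a wider list, and that wider set without Pmvk, where the 2 groups overlap.

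Of the 4 genes whose STZ libraries lay higher, the promoters of Srebf2, Ebp and Lss are shown and that of Fads2, whose window held neither of the letter patterns searched, is not. Sterol genes are known to share binding sites for SREBP and its partner NF-Y close to the start. RefSeq held a window of 250 bases before to 50 bases after the start, in build GRCr8, for 18 of the 26 genes with a row. On both strands, the letters CCAAT, the core of an NF-Y site, were found for 14 of the 18 genes (77.8%). They were in 37.5% of 33469 windows of all genes, a share of windows and not of genes. The letters TCACNCCAC, a common form of the sterol response element, were found for 0 of the 18 genes and in 1.12% of all windows. This says only that these letters are not in the windows of these genes. The 150 bases before each start are given here 5′ to 3′ on the strand of the gene, with CCAAT or its reverse complement in capitals, at chr7:115543157-115543306 (plus strand) for Srebf2, chrX:16971312-16971461 (plus strand) for Ebp and chr20:12118231-12118380 (minus strand) for Lss, all in GRCr8.
Srebf2: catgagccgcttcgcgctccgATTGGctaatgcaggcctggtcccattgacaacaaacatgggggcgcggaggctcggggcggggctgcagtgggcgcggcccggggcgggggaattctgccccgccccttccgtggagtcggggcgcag
Ebp: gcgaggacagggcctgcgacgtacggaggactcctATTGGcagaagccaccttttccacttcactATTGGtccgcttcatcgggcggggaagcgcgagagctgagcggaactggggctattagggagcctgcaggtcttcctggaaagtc
Lss: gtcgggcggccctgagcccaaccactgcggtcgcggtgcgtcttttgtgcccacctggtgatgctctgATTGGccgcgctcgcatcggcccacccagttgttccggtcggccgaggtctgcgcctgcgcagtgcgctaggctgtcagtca
The stretch of Ebp holds 2 matches and those of Srebf2 and Lss hold 1 each. Genes whose libraries overlapped held the letters too, among them Hmgcs1, Fdps, Idi1, Mvd, Nsdhl, Insig1, Insig2, Acly and Srebf1.

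Of the sterol transport genes, Abcg1, which moves cholesterol to high-density lipoprotein and is a target of the LXR sterol sensors, was marginally lower in every STZ library. Abcg1 (rn4 chromosome 20, 9390484 to 9459574) was at 267, 265 and 265 in control and 243, 251 and 222 in STZ libraries. The control libraries were almost equal, so a difference of means of 265 ± 1.02 and 239 ± 15.2 (SD, n = 3 each) was enough to separate the groups. Its log2FC was -0.15 (SE 0.17, limma adjusted p of 0.79). Stard4, a carrier of cholesterol between membranes, was at 24.6, 13.0 and 11.1 in control and 13.0, 16.8 and 12.0 in STZ libraries, with a log2FC of -0.14 (SE 0.40) that became 0.19 without control replicate 1. Abca1 was not analysed here.

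The genes of fatty acid synthesis all overlapped between the groups, with log2FCs below 0 for each of the 3 that had a row. Acly, which makes cytosolic acetyl-CoA from citrate, was at 221, 317 and 308 in control and 163, 310 and 275 in STZ libraries, a log2FC of -0.21 (SE 0.26). Me1, the cytosolic malic enzyme that supplies NADPH, was at 799, 686 and 574 in control and 547, 397 and 681 in STZ libraries, a log2FC of -0.36 (SE 0.23, limma adjusted p of 0.531). Acaca, the carboxylase that commits acetyl-CoA to fatty acids, was at 27.7, 50.3 and 76.8 in control and 26.9, 46.5 and 67.3 in STZ libraries. Same-numbered control and STZ libraries were nearly equal for Acaca, and the spread within a group was far larger than the difference of the means, with a log2FC of -0.11 (SE 0.40, limma adjusted p of 0.953). The 95th percentile of the olfactory receptor rows varied likewise, at 2.05, 6.33 and 10.02 in control and 1.86, 5.93 and 9.03 in STZ libraries, and its part in the values of Acaca was not tested. Fasn was not analysed here.

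Of the desaturases and elongases, Fads2, the delta-6 desaturase that starts the synthesis of long polyunsaturated fatty acids, had the highest log2FC of the 26 genes. Fads2 (rn4 chromosome 1, 212512691 to 212542621) was at 13.3, 15.3 and 15.6 in control and 27.9, 34.6 and 23.1 in STZ libraries. The groups were well apart beside their spread, at 14.7 ± 1.22 and 28.5 ± 5.79 (SD, n = 3 each), but both rested on few reads. The log2FC was 0.89 with an SE of 0.31, a limma p of 0.015 and an adjusted p of 0.188, which ran from 0.129 to 0.55 over the alternatives. Fads1, the delta-5 desaturase of the same chain, was at 417, 194 and 249 in control and 282, 442 and 237 in STZ libraries. Its groups overlapped over nearly their whole range, and its log2FC was 0.18 (SE 0.30).

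Scd1, a delta-9 desaturase that makes monounsaturated fatty acids, was at 17.4, 19.8 and 28.9 in control and 11.1, 19.8 and 15.1 in STZ libraries, a log2FC of -0.50 (SE 0.36, limma adjusted p of 0.6). Scd2 had no row of that name, and a row named Scd, an older symbol of Scd2 in RefSeq, was at 531, 436 and 327 in control and 360, 306 and 276 in STZ libraries, a log2FC of -0.44 (SE 0.22, limma adjusted p of 0.386). Both desaturase rows had lower means in STZ, with the groups overlapping, and reads of such close relatives may be split between them. The elongases were closer to 0. Elovl1, for saturated very long chains, was at 914 ± 25.6 and 882 ± 202, Elovl5, for polyunsaturated chains, at 898 ± 198 and 805 ± 107, and Elovl6, for chains of palmitate length, at 93.0 ± 20.3 and 86.2 ± 26.8 (SD, n = 3 each). Their log2FCs were -0.08, -0.14 and -0.13.

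Some libraries stood at the edge of their group for many of the 26 genes. Control replicate 3 was the lowest control library for 15 genes and STZ replicate 3 the lowest STZ library for 17. Control replicate 1 was the highest of all 6 libraries for 7 genes, among them Idi1, Fdps and Stard4. Of the 26 genes, 12 changed the sign of their log2FC when a single library was left out, and 14, the 6 without overlap among them, kept it under every one of the 22 alternative settings that gave a value. For those 6 genes, leaving out a library could not change the sign, since the groups did not overlap.

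Other genes of lipid metabolism were read from a wider list of 111 names, of which 81 had a row and 76 were tested. By limma 3 of the 76 were called higher and 0 lower, 1 gene each of sterol uptake, fatty acid handling and triglyceride synthesis. The same 3 were called by edgeR, and DESeq2 called 6 in all. The 3 that DESeq2 added were Idh1 and Me2, higher in STZ, and Sc5dl, lower in STZ (DESeq2 adjusted p 0.010, 0.034 and 0.0068). Over all rows tested the shares called were 2.1% by limma, 2.13% by edgeR and 4.43% by DESeq2. At an unadjusted limma p under 0.05, 9 were higher and 6 lower, where 7.75% and 6.99% of all rows were. Mylip, the ubiquitin ligase that sends lipoprotein receptors to degradation and an LXR target, was at 185, 191 and 179 in control and 428, 392 and 335 in STZ libraries. The control libraries were close together and every STZ library was well above them. Its log2FC was 1.05 (SE 0.18, limma adjusted p of 0.016). Acot7, a thioesterase that splits acyl-CoA, was at 63.6, 64.1 and 41.2 in control and 120, 152 and 137 in STZ libraries, again without overlap, with a log2FC of 1.28 (SE 0.24, limma adjusted p of 0.021). Lpin2, a phosphatidate phosphatase of triglyceride and phospholipid synthesis, was at 351, 632 and 319 in control and 2235, 1016 and 943 in STZ libraries. STZ replicate 1 held more than the other STZ libraries together, and the log2FC of 1.64 (SE 0.35, limma adjusted p of 0.038) was 1.24 without it, with an adjusted p of 0.073. Without the intensity trend in limma none of the 3 passed, with adjusted p of 0.124 for Mylip, 0.141 for Acot7 and 0.201 for Lpin2. Mylip also missed the threshold without control replicate 2, STZ replicate 1 or STZ replicate 2 (adjusted p 0.063 to 0.076), Acot7 without control replicate 2, STZ replicate 2 or STZ replicate 3 (0.056 to 0.102), and Lpin2 without control replicate 1 or 3 or STZ replicate 1 or 2 (0.063 to 0.117) and with a correction for locus length (0.065).

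**Figure D5:**
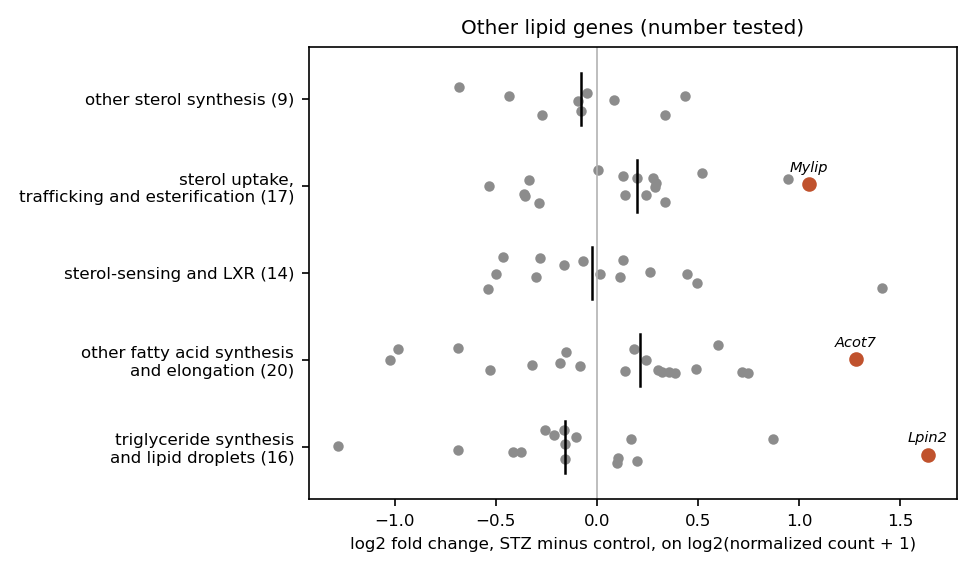
Log2FC (STZ minus control, on log2(normalized count + 1)) of 76 other lipid genes in 5 lists, 1 point per gene, spread vertically at random within a list, with the median of each list as a black line. The 3 genes that passed the limma adjusted threshold, Mylip, Acot7 and Lpin2, are the larger orange points, and the medians lie between -0.16 and 0.21.

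No other listed gene passed by limma. In the wider sterol synthesis list, 9 genes were tested, and log2FCs ran from -0.68 for Sc5dl to 0.44 for Acat1, the mitochondrial thiolase, with a median of -0.08. Sterol uptake, trafficking and esterification genes numbered 17, from -0.53 for Lcat, which esterifies plasma cholesterol, to the 1.05 of Mylip, with a median of 0.20. For sterol sensing and LXR targets, 14 genes ran from -0.54 for Nr1h3, which encodes LXR alpha, to 1.41 for Pltp, a phospholipid transfer protein. Pltp was at 7.18, 39.7 and 32.3 in control and 65.0, 49.5 and 61.2 in STZ libraries, without overlap and with a limma adjusted p of 0.205.

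The other fatty acid synthesis and elongation list held 20 tested genes, with a median of 0.21. Its lowest log2FC was -1.02 for Mid1ip1, an activator of acetyl-CoA carboxylase, at 46.1, 55.7 and 50.1 in control and 34.4, 20.8 and 20.1 in STZ libraries. The groups did not overlap, and the limma adjusted p was 0.10. The triglyceride and lipid droplet list held 16, with a median of -0.16, and its lowest was -1.28 for Cidec, a lipid droplet protein of adipocytes, which was at 8.39 to 11.3 in control and 1.86 to 6.02 in STZ libraries with a limma adjusted p of 0.373. Of its STZ libraries, replicates 1 and 2 were at or under 3 reads.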

How the data were processed

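Libraries came from the IM tips of 3 control and 3 STZ rats. Per the submitters' processing notes and the study's methods, the authors aligned reads to rn4 with STAR 2.3.1t, assigned them to Ensembl genes and scaled the libraries with DESeq 1.16.0. Which program counted the reads, and whether strand was used, is not given in the sources used here, so overlapping genes may share reads. The deposited signal is the normalized count, and it had been divided by a size factor per library by the authors. Its steps gave back whole reads for 100.0% of values in every library (tolerance 0.001), from 3412311 to 5575171 reads per library. The cDNA was amplified by PCR without molecular identifiers, so a floor of 3 reads covers counting error only. Of the 27321 rows, 527 merge overlapping genes and 2720 lie between genes.

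Rows were matched by exact name. With limma 3.58.1 in R 4.3.3, log2(normalized count + 1) was compared over 13486 rows with a mean of at least 5, with an intensity trend, and p was adjusted by Benjamini-Hochberg over all of them (threshold 0.05). Since the deposited values had been scaled, count models served as alternatives only. The other settings were a pseudocount of 0.5 or 5, a minimum mean of 1, of 20 or none, equal totals, quantile normalization, no trend, robust moderation, edgeR 4.0.16 (quasi-likelihood, with TMM, with DESeq2 size factors, and without the filter), DESeq2 1.42.0, a locus length correction, the replicate block and each library left out. The count models used the recovered reads. Methods were tested on simulated data. Each rat is a separate animal by its label. Figures were made with Python 3.11.15 and matplotlib 3.10.9.

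The genes and lists were chosen with earlier results of these data known. Values of each library are given for SREBP regulators and for genes that passed or did not overlap, for the other genes group means or ranges or, where libraries differed, single values. Of other lipid genes, those that passed and the highest and lowest of each list are named. The ratios of late to early enzymes were chosen after values were seen.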

Additional observations from a re-analysis of the deposited data

How the results depend on the processing

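The values rest on 3 rats per group, so that a difference smaller than about 2 SE of a gene could not be told from 0 even before adjustment. The adjusted threshold needed more, since Ebp, at 0.60 with an SE of 0.21, had a limma adjusted p of 0.187. The SE was highest for Srebf1, Mvd, Stard4 and Acaca. The 4 low genes Srebf1, Mvd, Stard4 and Scd1 have no value at a minimum mean of 20. The count of sterol and fatty acid genes called was 0 under every alternative except the replicate block, including each library left out (0 to 0). The 283 rows called over the whole table became 502 with quantile normalization, 31 without the intensity trend, 664 with edgeR without a filter and 597 with DESeq2, and 88 to 352 with a library left out, the lowest without STZ replicate 2. It was 182 without control replicate 1, 101 without control replicate 2, 141 without STZ replicate 1 and 163 without STZ replicate 3. The 3 other lipid genes called became 5 with equal library totals, 5 with quantile normalization, 0 without the trend, 7 with edgeR without a filter and 6 with DESeq2, and 0 to 3 with a library left out, 0 without STZ replicate 2 and 1 without control replicate 2 or STZ replicate 1. The median log2 fold change of the 26 genes, -0.09, ran from -0.10 to -0.0042 with a library left out, the highest without control replicate 1, and from -0.12 to -0.05 under the other alternatives. The cause of these changes was not tested.

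With a library left out, 12 genes changed sign, none of which passed the threshold, and their log2 fold changes ran from -0.26 to 0.66 for Srebf1, -0.37 to 0.11 for Insig1, -0.27 to 0.38 for Mvd, -0.40 to 0.081 for Idi1, -0.17 to 0.36 for Sqle, -0.14 to 0.11 for Nsdhl, -0.35 to 0.19 for Stard4, -0.40 to 0.066 for Acly, -0.49 to 0.23 for Acaca, -0.24 to 0.10 for Elovl1, -0.37 to 0.017 for Elovl6 and -0.074 to 0.49 for Fads1.

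Replicate numbers are shared between the groups in the labels, but the rats are different animals. Deviations of same-numbered libraries correlated at 0.395, -0.061 and 0.323 over 9315 rows, so the numbers were not taken as pairs, and not every library correlated best with its own number. The olfactory receptor background given above was similar in same-numbered libraries. Whether same-numbered libraries shared a preparation batch was not tested. With the replicate block, limma called 561 rows, 5 other lipid genes and 1 of the 26 (Srebf2, adjusted p 0.0398), and edgeR called 544, 5 and 1 (Srebf2, adjusted p 0.0387).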
